A study of Mus musculus with 8 samples.

Results

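The transcripts described here are those of the receptor chains for interferon, Ifngr1, Ifngr2, Ifnar1 and Ifnar2, and of interferon gamma itself, Ifng. They were picked from the table of normalized counts by gene symbol, and 5 of 5 were found among the 22829 genes listed. The only measured value that entered the choice was the mean over the 8 samples, which had to reach 10 normalized counts, and the means ran from 682 for Ifng to 16499.9 for Ifngr1, so no member lay near that limit. Earlier results of these data were known when the genes were picked, and Ifngr1 had stood out in them, so its values are given as a description. RNA seq had been done on Th17 cells from ROR-γt-/- mice that received ROR-γt back by lentivirus, in 4 samples as WT-ROR-γt and in 4 as K187R-ROR-γt, a form in which the lysine that carries SUMO is replaced by arginine. The sample labels give the groups, and the study's text gives the deletion, the lentivirus and the culture. The short design note of the record instead calls the samples WT mice and mutant mice. The comparison asks what changes when ROR-γt cannot be SUMOylated. Both groups thus share the deletion of ROR-γt, the spleen as source of CD4+ T cells, purification on magnetic beads, the lentivirus and culture under Th17 polarizing conditions. The age of the mice, and whether the samples of a group came from separate animals or cultures, is not given in the sources used here, so the p-values below measure the spread between these samples only, which may be technical.

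Interferon gamma is a cytokine made mainly by Th1 cells, CD8+ T cells and NK cells, and it holds back Th17 differentiation. It binds a receptor built from Ifngr1, the chain that grips the ligand, and Ifngr2, the chain that completes signalling, with the kinases Jak1 and Jak2 on their tails. The type I interferons, alpha and beta, use a separate receptor of Ifnar1 and Ifnar2 with the kinases Tyk2 and Jak1, and signal through a complex that holds Irf9. In T cells the levels of the gamma receptor chains are known to change with activation and differentiation, and with them the response to interferon gamma.

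Between 52456804 and 74676721 reads per sample had been counted on genes. Clustering on genes other than the members did not group the samples by the form of ROR-γt. The tree was cut into 3 sets, a number that was fixed and not found by the clustering. The first held WT replicates 1 and 3 and K187R replicate 1. The second held WT replicate 2 and K187R replicates 2 and 3, and the third WT replicate 4 and K187R replicate 4. The T cell markers Cd3d, Cd3e, Cd3g, Cd4, Cd28 and Trac were all expressed, with summed normalized counts of 125368 to 147388 in WT and 128581 to 143876 in K187R. All 9 Th17 markers reached a mean of 10, though Il22 did not do so in every sample. It had 2.61 normalized counts in WT replicate 4 and 1.78 in K187R replicate 4, worth 3 reads or fewer. In the other samples it had 39.2 to 59.7. Markers of other cells were present too, the 8 myeloid markers at summed counts of 21413 to 65490 in WT and 36549 to 68958 in K187R, led by Lyz2. The 8 CD8 and NK markers summed to 1407 to 2537 in WT and 1403 to 2566 in K187R, the 6 B cell markers to 324 to 1281 and 402 to 1697, and the 4 erythroid markers to 3.38 to 64.5 and 9.04 to 84.5. Of the CD8 and NK list, Ncr1 was at 0 in 3 samples and at most 9.48 normalized counts in the others. Klrb1c had 1.74 to 24.9 and Klrk1 151 to 459 normalized counts. In bulk samples such as these, fewer cells of a type and less RNA per cell cannot be told apart.

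The members lie at 3 places in the mouse genome (GRCm38, plus strand, coordinates of GENCODE M21). Ifngr1 (ENSMUSG00000020009) lies on chromosome 10 from 19591949 to 19610229 and Ifng (ENSMUSG00000055170) on the same chromosome from 118441046 to 118445892. The other chains lie close together on chromosome 16, with Ifnar2 (ENSMUSG00000022971) from 91372783 to 91405589, Ifnar1 (ENSMUSG00000022967) from 91485238 to 91507441 and Ifngr2 (ENSMUSG00000022965) from 91547072 to 91565623. Il10rb, the accessory chain of the IL-10 receptor, begins 574 bases after the end of Ifnar2, and no protein-coding gene is annotated between Il10rb and Ifnar1 or between Ifnar1 and Ifngr2. The exons of Ifngr1, Ifngr2 and Ifnar1 overlap no other gene of that annotation. For Ifnar2, 9.46% of the exonic bases are shared with Gm21970, and for Ifng 25.9% are shared with Gm49751, both on the same strand, so reads there could have been split or left uncounted.

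The promoters of Ifngr1 and Ifng are shown because the first gene is the member that separated the groups and the second encodes its ligand. Each is the stretch of 250 bases before the RefSeq start on GRCm38.p6, plus strand, chr10:19591699-19591948 for Ifngr1 and chr10:118440796-118441045 for Ifng. Both strands were searched for the ROR element core (TAGGTCA or TGGGTCA), the interferon gamma activated site GAS (TTCNNNGAA), the interferon response element ISRE, the GC box (GGGCGG) and the TATA box (TATAAA), and capitals mark the matches.
Ifngr1: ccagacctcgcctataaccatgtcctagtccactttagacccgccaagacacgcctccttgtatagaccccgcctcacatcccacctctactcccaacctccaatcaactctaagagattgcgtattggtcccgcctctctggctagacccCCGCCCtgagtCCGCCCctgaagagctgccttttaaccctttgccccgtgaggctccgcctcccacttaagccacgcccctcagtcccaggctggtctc
Ifng: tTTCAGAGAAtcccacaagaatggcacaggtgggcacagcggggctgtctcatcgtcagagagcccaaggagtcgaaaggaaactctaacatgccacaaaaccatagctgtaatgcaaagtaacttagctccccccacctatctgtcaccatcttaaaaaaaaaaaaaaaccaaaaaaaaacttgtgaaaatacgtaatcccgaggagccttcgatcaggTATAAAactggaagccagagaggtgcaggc
The Ifngr1 window held 2 GC boxes, both on the minus strand, and none of the other motifs. The Ifng window held a TATA box that begins 30 bases before the start, and a GAS match at its far end. The windows of the chromosome 16 genes held 4 GC boxes for Ifngr2, 2 for Ifnar1 and a GAS match without a GC box for Ifnar2. Of the 32851 promoter windows in the table, 32.7% held a GC box, 12.4% a TATA box, 7.02% a GAS match, 5.38% a ROR element core and 2.98% an ISRE. GC content was 59.2% for Ifngr1, 74% for Ifngr2, 65.6% for Ifnar1, 54% for Ifnar2 and 45.2% for Ifng, beside a median of 52.4% over all windows. A match of letters is a description and no evidence of binding.

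The levels of the members can be compared only per length, so normalized counts were divided by the exonic length in kb. Ifngr1 was the most abundant, at 5796 ± 1420 normalized counts per kb (SD over the 8 samples), above 97.7% of the genes tested. Ifngr2 followed at 1353 ± 99.4 and Ifnar1 at 1217 ± 80.8 per kb. Ifnar2 had 823 ± 37.6 and Ifng 526 ± 109 per kb. Ifngr1 was above Ifngr2, Ifnar1 above Ifnar2 and Ifnar2 above Ifng in 8 of 8 samples each. Ifngr2 was above Ifnar1 in only 5 of 8, with a ratio from 0.97 to 1.34 over the samples. The samples with Ifngr2 below Ifnar1 were those of the second set, WT replicate 2 and K187R replicates 2 and 3. The order of Ifngr2 and Ifnar1 was thus not the same in all sets. Ifng thus had the lowest level per kb of the members, but still lay above 65.5% of the genes tested.

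**Figure D1:**
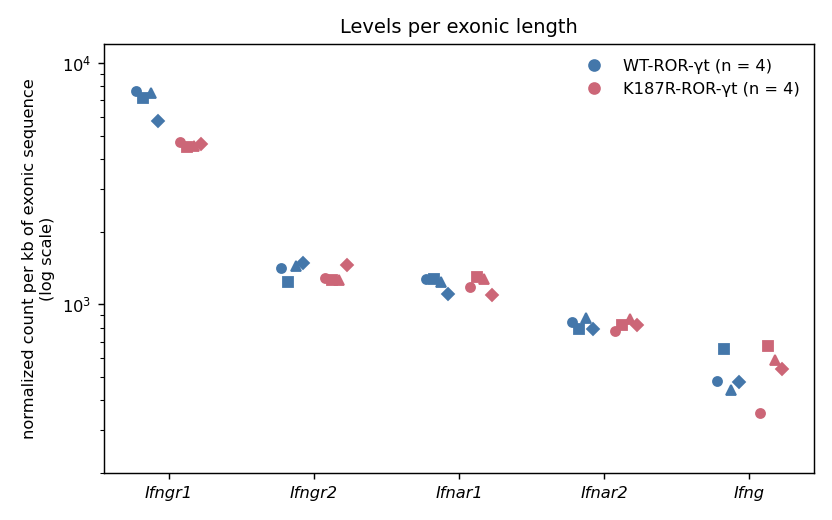
Normalized counts per kb of exonic sequence, on a log scale, for the receptor chains and Ifng, with 1 point per sample (blue, WT-ROR-γt; red, K187R-ROR-γt; circle, square, triangle and diamond are replicates 1 to 4). Ifngr1 lies above the other members in every sample, and the other chains lie within a narrow band.

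Of the receptor chains, only Ifngr1 separated the groups completely, and it was lower with K187R-ROR-γt. Its normalized counts in WT were 21740.2, 20440.2, 21301 and 16392 for replicates 1 to 4. In K187R they were 13343, 12721, 12901 and 13161. Every K187R sample was below every WT sample, WT replicate 4 was the lowest of its group, and the K187R samples lay within a factor of 1.05 of each other. The lowest WT sample was 1.23 times the highest K187R sample. The WT mean was 19968 ± 2445 and the K187R mean 13032 ± 275 (SD, n = 4 each). On the log2 scale this is -0.61 ± 0.093 (SE), with a 95% interval from -0.82 to -0.40, or as a percentage -34.3% with an interval from -43.2% to -24.2%. Among the 16982 genes tested, 2.46% had groups that did not overlap, and in 0.989% every K187R sample was below every WT sample. Nothing is read from this share for Ifngr1, which had been noticed for this contrast.

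In limma, fitted over all genes tested, the adjusted p-value of Ifngr1 was 0.344, and its unadjusted p-value (8.57e-05) was the third smallest of the 16982. By adjusted p-value, limma and edgeR called no gene (0%), while 746 (4.39%) had an unadjusted p-value under 0.05 in limma, 279 of them lower in K187R. DESeq2, the tool named in the study, called 27 of the 13970 genes it adjusted (0.193%), 12 of them lower (0.0859%), and Ifngr1 was among these with an adjusted p = 3.07e-05 from DESeq2. Without WT replicate 4, its adjusted p-value in limma was 0.00992 at a log2 fold change of -0.70. The number of genes called was then 4 (0.0236%), 3 of them lower (0.0177%), so this library decides the call in limma. WT replicate 4 held the lowest WT value of Ifngr1, so leaving it out could only widen the difference. Sample weights, which gave WT replicate 4 the least weight (0.344), brought Ifngr1 under the threshold as well, as 1 of 3 genes called (0.0177%) and the only lower one (0.00589%). With the sample set in the limma model 1 gene was called (0.00589%), which was not Ifngr1. DESeq2 called Ifngr1 too with the sample set in its model, where it called 0.915% of genes (0.242% lower), and with the replicate number, where it called 1.29% (0.421% lower). By size of log2 fold change Ifngr1 ranked only 1046th of the genes tested. The within-group SD of Ifngr1 on the log2 scale was 0.13, and 75.5% of the genes had a larger SD.

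The Ifngr1 difference had the same direction within each set of samples. It was -0.69 on the log2 scale in the first set, -0.67 in the second and -0.32 in the third. The summed myeloid markers are set beside these values because myeloid cells also express the gamma receptor. They were 21413, 54207, 21849 and 65490 normalized counts in WT replicates 1 to 4, and 36549, 47592, 51829 and 68958 in K187R replicates 1 to 4. The groups overlapped for this sum. In the first set the myeloid sums were 21413 and 21849 in WT and 36549 in K187R, while Ifngr1 was 21740.2 and 21301 and 13343. In the second set they were 54207 in WT and 47592 and 51829 in K187R while Ifngr1 was 20440.2 and 12721 and 12901, and in the third set they were 65490 and 68958 while Ifngr1 was 16392 and 13161. The sums were thus higher with K187R-ROR-γt in the first set and in the third, and lower in the second. Each set holds only 1 or 2 samples of a group. Lyz2, at 17025 to 57778 normalized counts, made up most of each sum, and single markers did not all follow it. In the second set Cd68, Csf1r, Adgre1 and Cd14 were higher in both K187R samples, Lyz2, Itgam and Fcgr3 lower, and Mpo was mixed. In the third Cd68, Csf1r and Cd14 were lower with K187R-ROR-γt and the other markers higher. Only Cd14 was lower in the first. The part of myeloid cells in the Ifngr1 values was not tested.

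**Figure D2:**
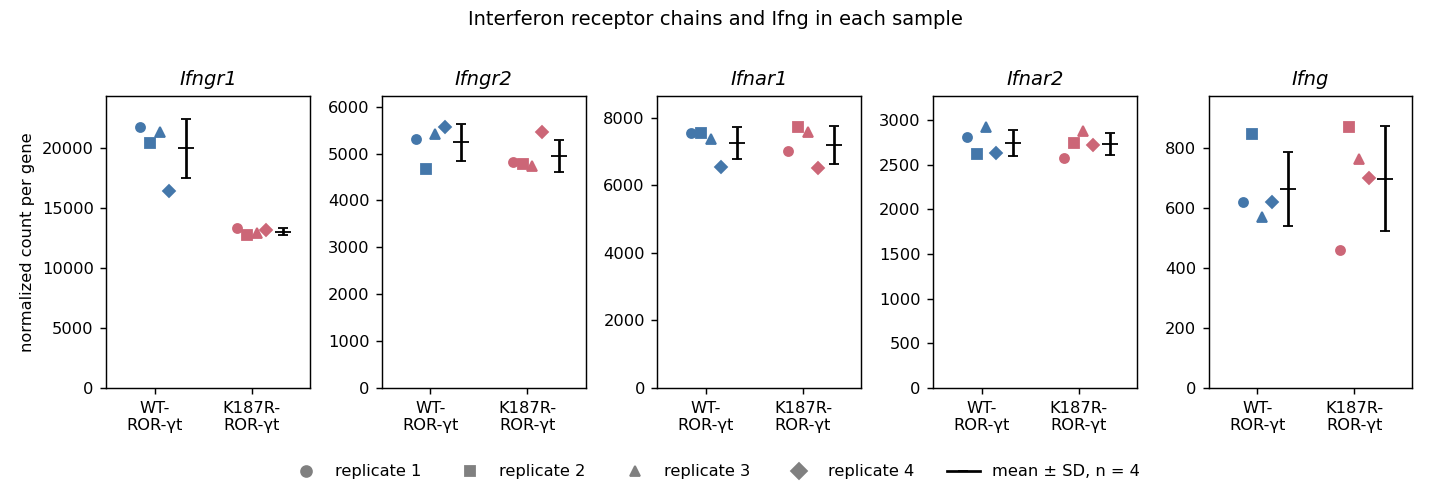
Normalized count of each gene (vertical axis, starting at 0) in each sample, with WT-ROR-γt in blue, K187R-ROR-γt in red, replicates 1 to 4 as circle, square, triangle and diamond, and the mean ± SD of each group (n = 4) beside the points. The K187R samples of Ifngr1 lie between 12721 and 13343, all below the WT samples, and the groups overlap for the other genes.

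Ifngr2, the partner of Ifngr1, had overlapping groups. Its normalized counts were 5304, 4674, 5416 and 5565 in WT replicates 1 to 4. They were 4830.5, 4771, 4742 and 5465 in K187R replicates 1 to 4. The highest sample of each group was replicate 4. Means were 5240 ± 392 and 4952 ± 344 (SD, 4 samples each). The difference was -0.08 ± 0.080 (SE) on the log2 scale, with an adjusted p = 0.923 in limma. Its 95% interval, from -16.6% to 7.17% in K187R relative to WT, does not reach the size of the difference in Ifngr1.

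The proportion of the gamma receptor chains is given next. Per kb, Ifngr1 exceeded Ifngr2 by a factor of 5.42, 5.79, 5.20 and 3.90 in WT replicates 1 to 4. The factor was 3.65, 3.53, 3.60 and 3.19 in K187R replicates 1 to 4. The groups did not overlap, but WT replicate 4 was close to the highest K187R sample. The ratio of Ifngr1 to Ifnar1 did not overlap either, at 5.22 to 6.02 in WT and 3.44 to 4.22 in K187R. The separation was thus not particular to the pair of gamma receptor chains. Ratios without Ifngr1 overlapped. That of Ifnar1 to Ifnar2 was 1.48 ± 0.099 in WT and 1.48 ± 0.10 in K187R (SD, n = 4 each). That of Ifngr2 to Ifnar2 was 1.58 to 1.87 in WT and 1.45 to 1.77 in K187R. These ratios are given without a test, since Ifngr1 was among the genes known to differ.

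Ifnar1, the signalling chain of the type I receptor, had 7538 normalized counts in WT replicates 1 and 2, 7384 in replicate 3 and 6551 in replicate 4. In K187R it had 7021, 7726, 7578 and 6503 for replicates 1 to 4. Replicate 4 was the lowest of each group, and the groups overlapped. The difference of -0.01 ± 0.080 (SE) on the log2 scale had an adjusted p = 0.992 in limma and a 95% interval from -12.4% to 12.5%.

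Ifnar2, the chain that binds type I interferon most tightly, was the steadiest member. Its normalized counts were 2814, 2622, 2921 and 2634 in WT replicates 1 to 4. In K187R replicates 1 to 4 they were 2580.2, 2739.7, 2883 and 2724. The highest of the 8 samples was 1.13 times the lowest, and 95.6% of the genes tested had a larger within-group SD. On the log2 scale K187R differed from WT by -0.01 ± 0.071 (SE), adjusted p = 0.992 in limma, with a 95% interval from -10.9% to 11.1%. Ifnar2 makes a membrane form and a soluble form, which a count per gene does not separate. Il10rb, its neighbour, had a log2 fold change of -0.04.

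**Figure D3:**
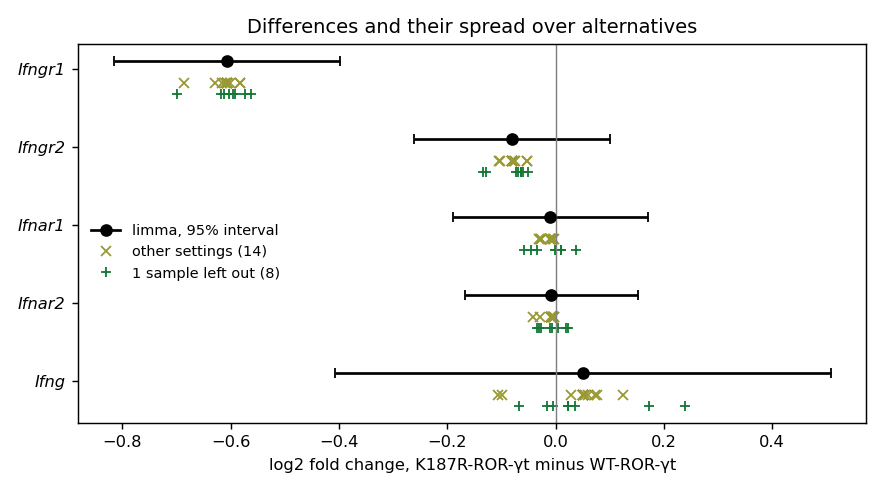
Log2 fold change of each gene, K187R-ROR-γt minus WT-ROR-γt (horizontal axis), with the limma estimate and its 95% interval in black, the estimates under 14 other settings as crosses and those with 1 sample left out as plus signs. Every estimate of Ifngr1 lies between -0.70 and -0.56, the estimates of Ifngr2 lie between -0.13 and -0.05, and those of Ifnar1, Ifnar2 and Ifng lie on both sides of 0.

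Ifng had the largest spread within groups among the members, and its groups overlapped. Its normalized counts were 620.3, 847, 572 and 619.6 in WT replicates 1 to 4. In K187R they were 459.8, 869.9, 763 and 701 in replicates 1 to 4. The samples of the second set, WT replicate 2 and K187R replicates 2 and 3, were the highest, and K187R replicate 1 was the lowest. Means were 665 ± 124 and 698 ± 174 (SD, 4 samples each). In limma the difference was 0.05 ± 0.20 (SE) on the log2 scale, adjusted p = 0.979. The 95% interval, from -24.6% to 42.2%, was the widest of the members. Within sets the difference was -0.37, -0.06 and 0.18 on the log2 scale, so its direction was not the same in all sets.

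CD8 and NK cells also make interferon gamma, and the sum of their 8 markers was highest in the same samples, though not that of each marker. Summed over the list, WT replicate 2 had 2537 normalized counts, K187R replicate 2 had 2474 and K187R replicate 3 had 2566, while the remaining samples held 1403 to 2160. Eomes, a transcription factor of CD8 and NK cells that promotes Ifng, had 359.6, 340.6 and 404 normalized counts in those 3 samples and between 35.0 and 61.9 in the others. Gzmk, a granzyme of killer cells, had 609.5, 531.5 and 519 in these samples and 27.3 to 46.2 in the others. Klrk1 was likewise highest in them, at 458.6, 428.4 and 362 against 151 to 304. Klrb1c had 17.3, 24.9 and 21.1 against 1.74 to 7.13, and Ncr1, at few reads, 6.73, 4.34 and 9.48 against 0 to 2.26. Prf1 overlapped, at 683, 757 and 846 in these samples and 554 to 691 in the others. Both chains of the CD8 coreceptor were lowest there, Cd8a at 131.7, 133 and 121 against 163.8 to 634.8 in the rest, and Cd8b1 at 271, 253.8 and 282 against 313 to 506. The part of such cells in the level of Ifng was not tested.

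The genes whose pattern over the 8 samples was most like that of Ifngr1 were Bbs7, Fosl2 and Gm43124. Likeness was measured as the root mean square difference between the log2 values, each gene centred on its own mean, and was 0.12 for each of the 3, beside a median of 0.39 over all genes. Fosl2, an AP-1 factor known to restrain parts of the Th17 programme, had 8907 to 12583 normalized counts in WT and 7089 to 7646 in K187R. Bbs7, a subunit of the BBSome of primary cilia, had 102 to 141 and 80.1 to 97.8. For Ifng the most alike were Il10, Gm44008 and Insl6, at 0.11, 0.11 and 0.13. Il10, the anti-inflammatory cytokine, had 1794, 1635 and 1472 normalized counts in the samples of the second set and 984 to 1241 in the others. These genes were picked for their likeness, so no test is given.

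The other genes of the pathway were described by lists. Of the 21 interferon genes listed, only Ifng was found by symbol in the normalized counts, so nothing is said of the rest. Over the 82 tested genes of the lists other than the members, none passed in limma (0%) or in DESeq2 (0.193% of all genes), 11 had an unadjusted p-value under 0.05 and were higher in K187R, and 1 had such a p-value and was lower. With the sample set in its model, DESeq2 called 2 of the 82, Ciita and Il18r1, and 0.915% of all genes. The background of unadjusted p-values over all genes tested was 2.75% higher and 1.64% lower. The median log2 fold change of the 82 genes was 0.16, or 0.10 with the sample set in the model, beside -0.01 over all genes tested. The myeloid and B cell sums given above also differed among these samples, and their part in the values of the lists was not tested.

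Among the relatives of these chains in the class II cytokine receptor family, 0 of 6 passed and the median log2 fold change was 0.13. Il10ra, the ligand-binding chain for IL-10, had 1814, 1971, 2027 and 2246 normalized counts in WT replicates 1 to 4 and 2424, 2332, 2768 and 2399.6 in K187R. All K187R samples were above all WT samples, as in 1.47% of the genes tested, and the log2 fold change was 0.30 ± 0.090 (SE). Ifnlr1, the ligand-binding chain for interferon lambda, differed by 0.68 ± 0.40 (SE) and Il20rb by -0.26 ± 0.20 (SE) on the log2 scale.

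Of the 7 kinases and STAT complex genes, 0 passed and the log2 fold changes lay between -0.12 and 0.14. The extremes by p-value were Irf9 at 0.12 and Tyk2 at 0.14 above, and Stat3 at -0.12 and Jak2 at -0.05 below. Jak1, named here for its place in both receptors and not for its values, differed by 0.08 ± 0.079 (SE).

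Of the 11 negative regulators, 0 passed and the median was 0.05. Ptpn6, the phosphatase SHP-1 that dampens JAK signalling, had 6900.2, 7686, 7789.8 and 7943 normalized counts in WT replicates 1 to 4 and 8457, 9811, 10792 and 8630.3 in K187R. The groups did not overlap, with a log2 fold change of 0.31 ± 0.092 (SE). Ptpn1 differed by 0.25, the cytokine-induced inhibitor Cish by -0.37 and the phosphatase Ptpn2 by -0.13, with groups that overlapped.

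Among the 28 interferon gamma targets, 22 had a log2 fold change above 0 and 6 below, with a median of 0.13, beside 8224 above and 8758 below among all genes tested. None passed in limma or in DESeq2. Ciita, the master switch of MHC class II genes, was called higher by DESeq2 with the sample set in the model, at 0.64 ± 0.14 (SE) on the log2 scale (adjusted p = 0.0024). Its normalized counts were 277, 1079.6, 285 and 155 in WT replicates 1 to 4 and 565, 1361, 1651 and 196 in K187R replicates 1 to 4. The groups overlapped and the second set was highest. The summed B cell markers, which also differed, were 1081, 1281, 1060 and 324 in WT replicates 1 to 4. In K187R replicates 1 to 4 they were 1697, 1387, 1366 and 402. The part of B cells and myeloid cells in the Ciita values was not tested. Psmb10, a subunit of the immunoproteasome, was higher in every K187R sample than in every WT sample, at 1642 to 1947 in WT and 2037 to 2518 in K187R, a log2 fold change of 0.30 ± 0.092 (SE). Tapbp, which loads peptides on MHC class I, differed by 0.16. Gbp2, a GTPase induced by interferon gamma, had 68136, 47361, 67975 and 40247 normalized counts in WT replicates 1 to 4 and 39086, 44070.0, 42037 and 39546 in K187R replicates 1 to 4. Only WT replicates 1 and 3 were far above the rest, the groups overlapped, and the log2 fold change was -0.41 ± 0.17 (SE). Irf8 had its highest values in the same WT samples, and differed by -0.30 ± 0.23 (SE).

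Among the 23 type I targets tested, 22 of 23 lay above 0, with a median of 0.36, or 0.24 with the sample set in the model. None passed, and 5 had an unadjusted p-value under 0.05, all higher in K187R. Oas2, which makes the messenger that activates RNase L, had at most 39.2 normalized counts in WT and 45.3 to 87.4 in K187R, a log2 fold change of 0.94 ± 0.28 (SE). Xaf1 had 425 to 439.7 in WT and 474 to 660.5 in K187R, a log2 fold change of 0.37 ± 0.13 (SE). The highest value of either gene was in a K187R sample of the second set. Eif2ak2, the kinase PKR, was the gene below 0, at -0.0040 ± 0.11 (SE). These members shared the samples of each group, so the count above 0 is not a count of separate observations.

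Among the 11 tested regulators of Ifng in T cells, 0 passed in limma or in DESeq2 and the median was 0.13, or -0.04 with the sample set in the model. Il18r1, the receptor chain for IL-18, had 1348 to 2337 normalized counts in WT and 2341 to 3222 in K187R, a log2 fold change of 0.65 ± 0.18 (SE), and WT replicate 2 lay just under the lowest K187R sample. DESeq2 with the sample set called it higher, at 0.52 ± 0.12 (SE) with an adjusted p = 0.0050. Il27ra, a receptor chain for IL-27, differed by 0.31 with groups that overlapped. Il2ra and Il12rb2, receptor chains for IL-2 and IL-12, differed by -0.35 ± 0.21 (SE) and -0.39 ± 0.35 (SE).

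**Figure D4:**
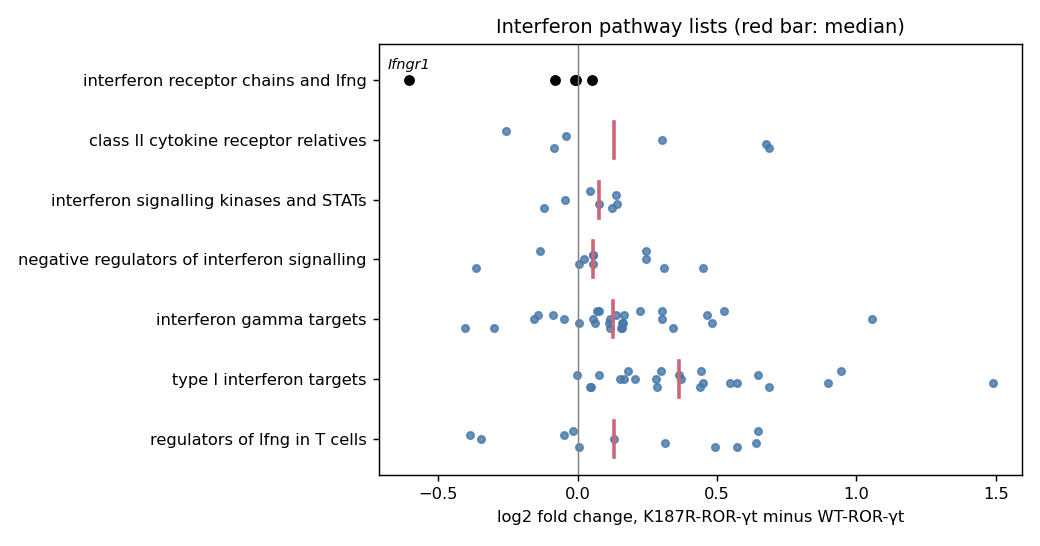
Log2 fold change, K187R-ROR-γt minus WT-ROR-γt (horizontal axis), of the receptor chains and Ifng in black and of the tested genes of 6 pathway lists in blue, 1 point per gene, with the median of each list as a red bar. The medians lie between 0.05 and 0.36, and Ifngr1 at -0.61 lies below every gene of the lists, of which the lowest is Gbp2 at -0.41.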

How the data were processed

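RNA seq of 8 samples was used. By the study's methods, trimming was by Cutadapt, alignment to GRCm38 by HiSat2, counting by featureCounts with GENCODE M15 and testing for differential expression by DESeq2. Multi-mapping and strand settings are not given in the sources used here, and labels and methods name different library kits. The authors deposited 1 signal per gene and sample, reads over a size factor, here called normalized counts. Every value (100%) was a whole multiple of what 1 read is worth, to within 0.01 of a read, so reads were recovered. Each library's 3 reads equal 2.54 to 3.56 normalized counts.

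The main test was limma (lmFit, eBayes with trend) on log2 of the normalized count + 1. It covered 16982 genes whose mean reached 10, with Benjamini-Hochberg adjustment and a threshold of 0.05. A log2 fold change on this scale understates the change of low genes. With 407 to 25187 reads per member and sample, counting error was at most 4.96% of a value. Alternatives were edgeR's quasi-likelihood test and DESeq2 on the recovered reads, a pseudocount of 0.5 or 5, all genes or those reaching a mean of 50, median centring, no trend, sample weights, the replicate number, the sample set, and leaving out each sample. Sets came from average-linkage clustering on 16895 genes without the members and pathway lists, with the number of sets fixed at 3. The fits were also run on simulated data, drawn without sample sets or pairs, so that run cannot decide which fit to trust here. Values of some single genes are not reported here. Members and lists were chosen with earlier results of these data known. Named from each list were the genes with the lowest p-value in each direction, at most 2 each, and any passing in limma or DESeq2, save those not reported. Exonic lengths came from GENCODE M21, which holds 22784 of the identifiers, and promoters from RefSeq. Software was limma 3.58.1, DESeq2 1.42.0 and edgeR 4.0.16 in R 4.3.3, and pandas 2.3.3, numpy 2.4.6, scipy 1.17.1 and matplotlib 3.10.9 in Python 3.11.15.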

Additional observations from a re-analysis of the deposited data

Results flagged for a closer look

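In 2 of the 10 groups of 4 samples examined (each member in each group), 1 sample lay farther from the rest than Dixon's test allows, and chance gives about 1 in 20. Ifngr2 had 5465 normalized counts in K187R replicate 4, against 4742 to 4830.5 in the other K187R samples, and WT replicate 4 was likewise the highest WT sample. Ifnar1 had 6551 in WT replicate 4, against 7384 to 7538 in the other WT samples, and K187R replicate 4 was likewise the lowest of its group.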

How the results depend on the processing

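Over 22 alternatives, Ifngr1 kept its direction in every one, between -0.70 and -0.56 on the log2 scale, also the range with 1 sample left out. It passed the threshold in 5. In DESeq2 it was at -0.62 (adjusted p = 3.07e-05), with the replicate block at -0.61 (6.37e-08) and with the sample set at -0.58 (1.43e-06). In limma it was at -0.69 (adjusted p = 0.0286) with sample weights and at -0.70 (0.00992) without WT replicate 4. Ifngr1 had been noticed for this contrast in these data, so these p-values and this count are a description and no support. WT replicate 4 was its lowest WT sample, so leaving that sample out could only widen the difference. Ifngr1 did not pass in edgeR (adjusted p = 0.402). Ifngr2 kept its direction in all 22. Ifnar1 changed sign only where 1 sample was left out (-0.058 to 0.038), as did Ifnar2 (-0.034 to 0.022). Ifng changed sign with the sample set (-0.11), in DESeq2 with the sample set (-0.098) and with 1 sample left out (-0.068 to 0.24). The number of genes past the threshold was 0 in limma (746 at an unadjusted p under 0.05) and 0 in edgeR (729), 1 with the sample set, 3 with sample weights, and 0 to 4 with 1 sample left out, the 4 without WT replicate 4. It was 27 in DESeq2 (15 higher, 12 lower), 175 once DESeq2 had the replicate block and 140 once it had the sample set. The cause was not tested. The labels do not say that equal replicate numbers pair the samples, so the main test did not take the numbers as pairs. Deviations from the group means correlated at 0.59, 0.66, -0.09 and 0.63 for numbers 1 to 4. Of the 8 samples, 6 correlated best with the sample of their own number, so the main test may leave out a real pairing. With the replicate block, limma called 0 genes and gave Ifngr1 -0.61 (adjusted p = 0.199).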
